A study of Saccharomyces cerevisiae with 8 samples.

Results

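RNA recovered with tagged Pho92 was compared between cells that were irradiated with UV and cells that were not. Of the 8 deposited peak lists, 4 entered the comparison, 2 for Pho92-HTP with UV and 2 for Pho92-HTP without UV. Peaks that touched on the same strand in these 4 lists were merged into 80894 regions, so a region found only without UV was kept. Of these, 870 exceeded the authors' normalized score of 0.9 in at least 2 of the 4 libraries and were tested. The score (h2w score in the file headers) grows with the square of a peak's height.

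Pho92 is the budding yeast protein with a YTH domain, the fold that reads N6-methyladenosine in RNA. The mark is laid down in meiosis by the methyltransferase Ime4. CRAC (UV crosslinking and analysis of cDNA) uses UV light to join a protein covalently to the RNA it touches. The protein is then purified by its HTP tag under denaturing conditions, which strip off RNA that is not crosslinked, and the trimmed RNA is sequenced. A sample of the same tagged strain that skips irradiation shows which RNA fragments come through the purification without a UV crosslink.

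All 4 libraries came from diploid SK1 yeast of genotype Pho92-HTP in the pCUP-IME1 background, in which copper switches on IME1, the regulator of entry into meiosis. Cells spent 5 h in SPO (sporulation medium), and 50 μM copper(II) sulfate had been present for the last 3 h. The Pho92-HTP group was irradiated at 254 nm for 80 s, and the labels give the other group no treatment. The same amount of crosslinked fission yeast cells with Luc7-HTP was added to each sample as a spike-in. Every sample, including those without UV, thus held some crosslinked RNA of the fission yeast. Each group's 2 libraries are biological replicates per the series text, and nothing further says how the cultures were kept apart, so spread between them may be partly technical. Libraries of the ime4 mutant (Pho92-HTP, irradiated) and of untagged wild type (irradiated) are cited beside some sites.

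The 2 lists without UV carry conflicting scaling factors. The score of Pho92-HTP replicate 1 was used as listed (factor 1), that of replicate 2 was multiplied by 5.92 in its sheet, and those of no-UV replicates 1 and 2 by 0.428 and 0.746. The deposited normalization table gives 1.13 and 0.771 for the no-UV libraries and assigns 0.428 and 0.746 to untagged wild type. For no-UV replicate 2 the table lists 2138 peaks, the number it also gives for untagged replicate 2, while 2462 stand in the sheet. The table's own counts of peaks above 0.9 without UV, 51 and 58, were obtained from these sheets with the sheets' factors. With the table's factors the same sheets gave 64 and 58. The sheets' factors were used below, results that turn on this choice are given under both, and the libraries are named as their sheets are. Since the files list no reads, heights are given as read equivalents, worked out from score and width, and a scaled height is a height after the spike-in factor.

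Irradiated cells gave far longer peak lists. Pho92-HTP replicates 1 and 2 held 66344 and 41604 peaks, and no-UV replicates 1 and 2 held 2925 and 2462. Peaks above the normalized score of 0.9 numbered 1061 and 1101 with UV and 51 and 58 without. These were means of 1081 ± 28.3 (SD, n = 2) and 54.5 ± 4.95 (SD, n = 2), a ratio of 19.8, which became 17.7 with the table's factors and 12.8 with no factor. The groups did not overlap under any of the 3 scalings. With 2 libraries against 2, the smallest two-sided exact p is 0.333, so whole-library values are given without a test.

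Small peaks made up most of every list, and more so without UV. The median peak height was 5.88 and 4.02 read equivalents with UV and 2.00 and 2.02 without. Peaks with the height of a single read were 10.5% and 14.9% of the lists with UV and 29.9% and 29.8% of the lists without. Peaks of at least 10 read equivalents numbered 21930 and 10142 with UV and 343 and 278 without. At the top of the scale the lists lay closer together, with 234 and 136 peaks of at least 1000 read equivalents against 26 and 24. The count ratio was thus smaller among the highest peaks than among all peaks.

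Summed over all peaks, scaled height was 2.87e+06 and 3.15e+06 read equivalents with UV and 275520 and 288714 without. The ratio of the group means was 10.7. It was 8.13 with the table's factors and 5.51 with no factor. Height without UV was concentrated in very few peaks: the strongest held 41.2% and 33.8% of it, against 4.48% and 4.73% for the strongest with UV. When the 20 regions with the highest mean normalized score without UV were left out, the ratio rose to 95.5. This set of 20 was chosen after the values were seen, at a gap in the ordered scores. The 20th region had a mean normalized no-UV score of 73.4 and the next one 25.1.

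Regions are described below in 3 classes, drawn after the values were seen: these 20 sites, contig NCSL01000092.1, and all other regions. The 20 sites held 7.11% and 11.1% of summed height with UV and 90.1% and 89.6% without. Contig NCSL01000092.1 held 30.2% and 27.2% with UV and 5.31% and 6.06% without. All other regions held 62.7% and 61.7% with UV and 4.58% and 4.31% without. Such shares within a library do not depend on the spike-in factor.

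**Figure D1:**
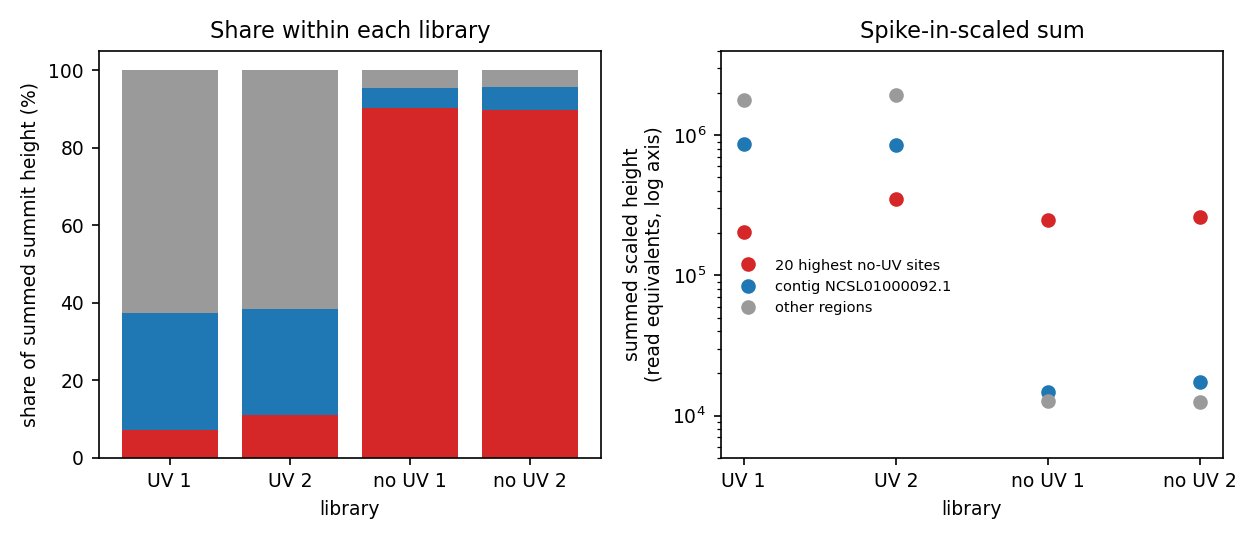
The left panel stacks the share of summed summit height, in percent, held by the 20 highest no-UV sites, by contig NCSL01000092.1 and by other regions in each of the 4 libraries, and the right panel shows the sum of each class, scaled by the sheets' spike-in factors, on a log axis. The 20 sites take 90.1% and 89.6% of height without UV, and with the sheets' factors their sums lie between 203876 and 349473 read equivalents in all 4 libraries (no-UV replicate 1 is at 402735 with the table's factor), while both other classes are lower without UV.

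In height scaled by the sheets' factors the 20 sites summed to 203876 and 349473 read equivalents with UV and 248266 and 258771 without. Both no-UV values then lay between the 2 Pho92-HTP values, and the ratio of the means was 1.09. With the table's factors the no-UV sums were 402735 and 262911, the first above both Pho92-HTP sums, and the ratio was 0.831. With no factor the sums were 203876 and 143632 with UV and 379414 and 299504 without, both higher without UV, with a ratio of 0.512. Contig NCSL01000092.1 summed to 866439 and 856335 with UV and 14626 and 17490 without, a ratio of 53.6 (41.5 with the table's factors and 28.6 with no factor). All other regions summed to 1.80e+06 and 1.94e+06 with UV and 12628 and 12453 without, a ratio of 149 (113 with the table's factors and 76.96 with no factor). In these latter 2 classes the groups were far apart under all 3 scalings.

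Normalized score was higher with UV in 843 of the 870 tested regions, which is 96.9%, and lower in 1, which is 0.115% (limma on log2 of normalized score plus a pseudocount of 2.21e-05, adjusted p under 0.05). The other 26 did not pass. The filter favours this outcome, since 867 regions exceeded 0.9 in both Pho92-HTP libraries and 46 exceeded it in both no-UV libraries. Of the 867, 395 (45.6%) had no listed peak in either no-UV library, and 44 (5.07%) exceeded 0.9 in both. The median log2 difference in score was 16.48 over all 870 regions, with a median SE of 0.72, but the size of the difference at regions listed at 0 depends on the pseudocount. In the 274 regions that carried a listed peak in every one of the 4 libraries it was 13.09, and 252 of them were higher with UV, none was lower and 22 did not pass. On the raw score, which carries no factor, 840 (96.6%) were called higher and 11 (1.26%) lower. A log2 difference in score is about 2 times that in height, and the median over these 274 regions of the ratio of scaled height with UV to that without was 91.1.

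**Figure D2:**
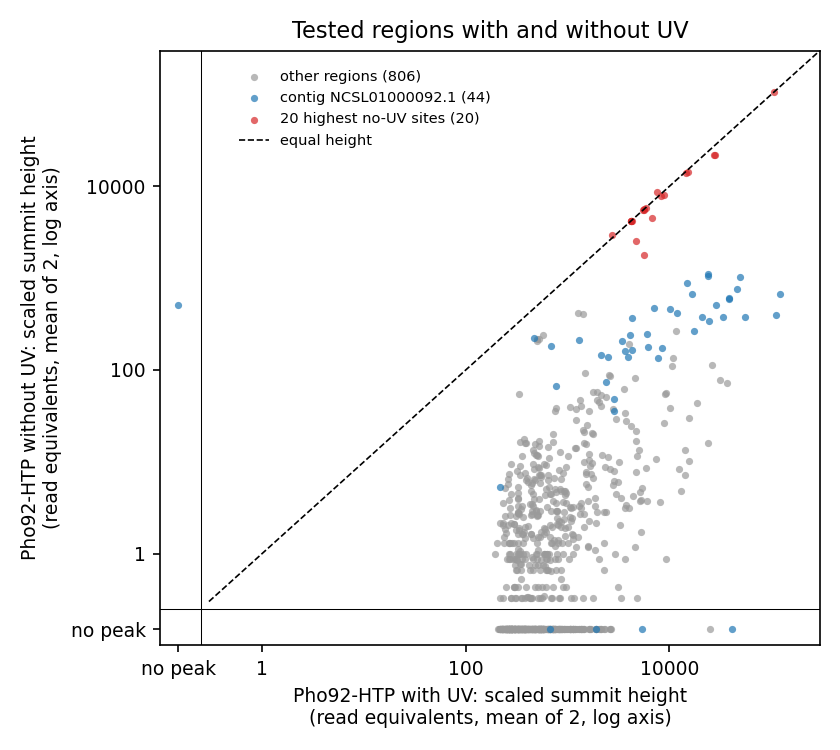
Each point is 1 of the 870 tested regions, with its mean scaled summit height (read equivalents, log axes) with UV on the horizontal axis and without UV on the vertical axis, and a region with no listed peak in a group is drawn in the margin. The 20 highest no-UV sites lie along the line of equal height, whereas nearly all other regions, including those of contig NCSL01000092.1, lie below it.

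Among the 20 sites, 1 passed the test and 19 did not. They were picked for high scores without UV, which are 1 side of this difference, so nothing is read from this count against the 96.9% called higher over all tested regions. Their median log2 difference in score was -0.07. The strongest was NCSL01000010.1 from 76774 to 76805 on the plus strand, with heights of 78128 and 55971 read equivalents in Pho92-HTP replicates 1 and 2 and 173585 and 113093 in no-UV replicates 1 and 2. Both no-UV heights were above both heights with UV before scaling. Normalized scores were 139280 and 423189 with UV and 294379 and 217856 without, so after scaling the groups overlapped (log2 difference -0.06, SE 0.63, limma adjusted p = 0.929). The ime4 mutant had 117046 and 106817 read equivalents at this site, and untagged wild type had 3208 and 2495.

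Next in order stood a pair of plus-strand sites of almost equal height in every library. NCSL01000002.1 from 149968 to 149999 had heights of 20173 and 14229 read equivalents with UV and 23587 and 32641 without. NCSL01000001.1 from 445225 to 445256 had 19934 and 14651 with UV and 24088 and 32191 without. Unscaled, both sites were higher without UV in each library pair, and both failed the test on the normalized score (log2 differences 0.73, SE 0.90 and 0.70, SE 0.91, limma adjusted p = 0.478 and 0.498). A second pair lay on the minus strand of a single contig. NCSL01000009.1 from 88258 to 88289 had 12006 and 7734 read equivalents with UV and 21599 and 17090 without. NCSL01000009.1 from 347149 to 347180 had 11733 and 7249 with UV and 21404 and 16519 without. Their log2 differences in score were 0.14 (SE 0.59) and 0.05 (SE 0.54), with limma adjusted p of 0.834 and 0.932.

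Such sets of near-equal sites recurred down the list. On the minus strand, NCSL01000054.1 from 27327 to 27358 had 6506 and 4687 read equivalents with UV and 13709 and 8228 without, and NCSL01000022.1 from 138631 to 138662 had 6235 and 4313 with UV and 13349 and 7926 without. A set of 3 began at 119530 on NCSL01000016.1, at 103559 on NCSL01000032.1 and at 162437 on NCSL01000019.1. Their no-UV heights ran from 8391 to 8710 in replicate 1 and from 6327 to 6625 in replicate 2. A set of 4 began at 84015 on NCSL01000031.1, at 195067 on NCSL01000005.1, at 132359 on NCSL01000029.1 and at 60288 on NCSL01000052.1. Their no-UV heights ran from 6231 to 6356 in replicate 1 and from 4916 to 5034 in replicate 2. No source used here states how reads that match several places were assigned, and whether members of such a set share reads was not tested.

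The remaining sites stood alone. NCSL01000011.1 from 300989 to 301020 on the minus strand had 5323 and 3972 read equivalents with UV and 13028 and 10379 without, with a log2 difference in score of -0.57 (SE 0.75, limma adjusted p = 0.502). NCSL01000001.1 from 119063 to 119099 on the plus strand had 4692 and 2952 with UV and 7588 and 7572 without. Log2 differences in score were 1.09 (SE 0.80) at NCSL01000010.1 from 48853 to 48891 and 1.75 (SE 1.08) at NCSL01000041.1 from 29787 to 29818. At NCSL01000002.1 from 322680 to 322739 the difference was -0.96 (SE 1.05). None of these passed the test (limma adjusted p = 0.257, 0.193 and 0.426). NCSL01000016.1 from 111284 to 111318 on the plus strand was the site that passed the test. It had 5487 and 2343 read equivalents with UV and 3068 and 1795 without, and normalized scores of 665 and 697 against 91.9 and 54.9. Its score was higher with UV by 3.26 on the log2 scale (SE 0.59, limma adjusted p = 0.00724), a call that was lost with the table's factors (adjusted p = 0.0689). With no factor the difference was 1.16 (limma adjusted p = 0.384), and with each library set to the same total 0.82 (limma adjusted p = 0.192). A trimmed-mean scaling reversed it to -7.96 (limma adjusted p = 0.000877). The call was also lost without Pho92-HTP replicate 1 (adjusted p = 0.0629), without Pho92-HTP replicate 2 (0.0624) and without no-UV replicate 2 (0.0859).

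Over the 20 sites, unscaled height without UV was 0.621 to 2.52 times that with UV, with a median of 2.02. In 18 of 20, both no-UV heights exceeded both Pho92-HTP heights. Over all tested regions, 2.18% had this order on the raw score and 96.8% had the reverse. The sites were picked for high no-UV scores and are among the tested regions, so nothing is read from this contrast. On the normalized score both no-UV values exceeded both Pho92-HTP values in 0.115% of tested regions (0.23% with the table's factors), and both Pho92-HTP values exceeded both no-UV values in 97.6% (97.4% with the table's factors). After scaling with the sheets' factors the ratio ran from 0.318 to 1.17, with a median of 0.972. The sites lay on 15 contigs, 13 of 20 were on the minus strand, and 12 had a length of 31 nt. Their median height in replicates 1 and 2 was 4703 and 3163 read equivalents with UV, 8449 and 6551 without UV, 8041 and 5996 in the ime4 mutant, and 132 and 106 in untagged wild type. Heights were thus of the same order in all 6 libraries of tagged cells and far lower in both untagged libraries. The untagged libraries were also thin as a whole, with summed heights of 53223 and 35058 read equivalents, of which these sites held 11.1% and 12.4%.

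**Figure D3:**
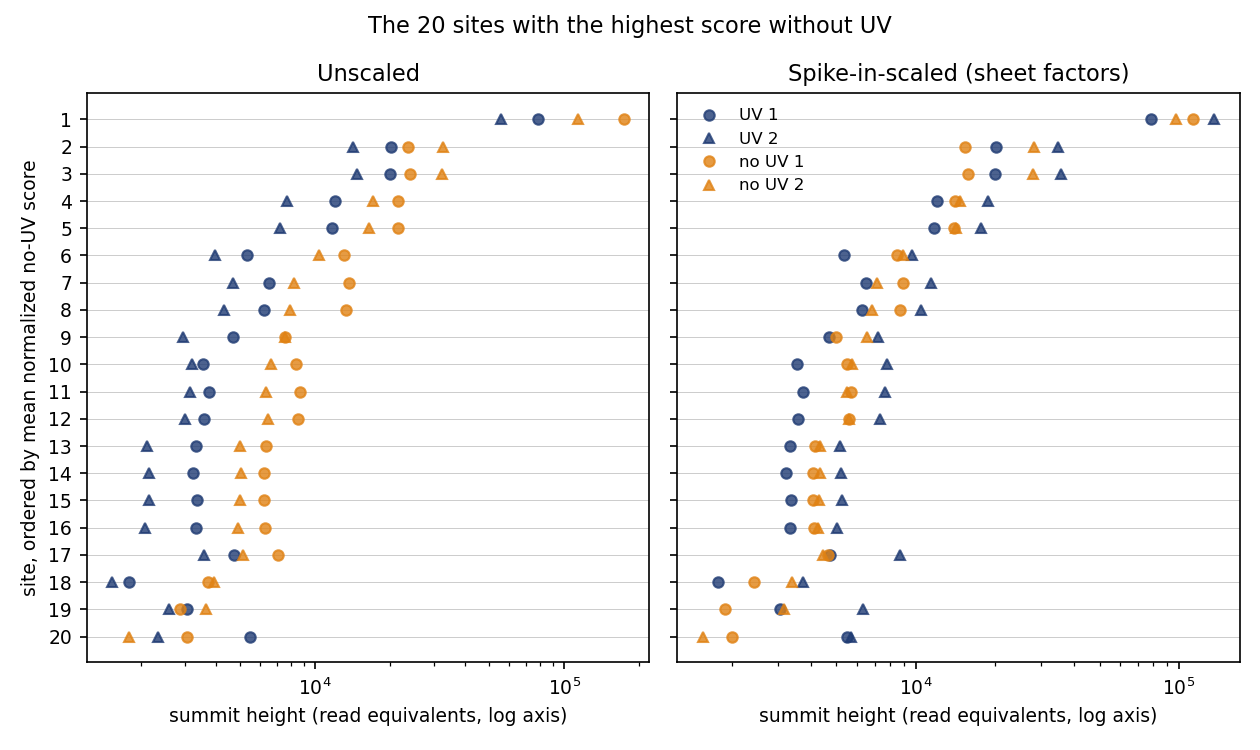
Summit heights (read equivalents, log axis) of the 20 sites with the highest no-UV score, numbered from the highest down, are shown for each of the 4 libraries before scaling (left) and after scaling by the sheets' spike-in factors (right). Before scaling both no-UV points lie to the right of both UV points at 18 of 20 sites, and after scaling the no-UV points mostly fall between the 2 UV points.

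The direction at these sites turned on the scaling. With the sheets' factors 11 of 20 had a negative log2 difference and none was called lower with UV. With the table's factors 16 were negative, none was called lower and none higher. With no factor 19 were negative and 8 were called lower, with a median of -2.18, and with each library set to the same total 19 were negative and 15 were called lower. Leaving out Pho92-HTP replicate 1 gave 6 sites called higher, and leaving out Pho92-HTP replicate 2 gave 9 called lower. Neither direction can therefore be given for the set.

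**Figure D4:**
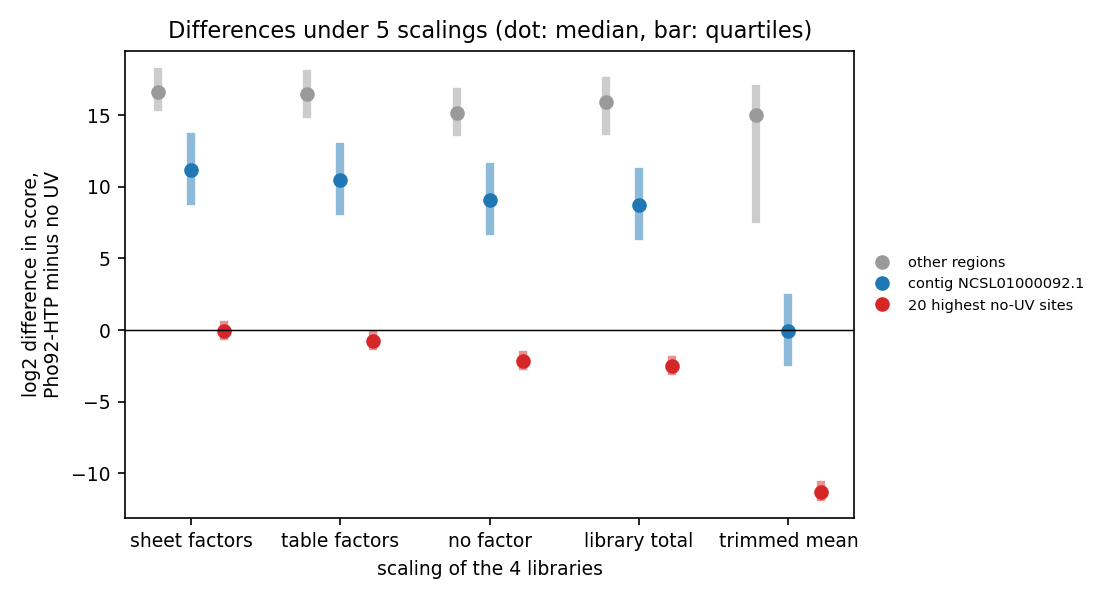
The log2 difference in score (Pho92-HTP minus no UV) over the tested regions is shown under 5 scalings of the libraries, with a dot for the median and a bar for the quartiles of each class. The 20 highest no-UV sites move from a median of -0.07 with the sheets' factors to -2.18 with no factor and -11.30 with a trimmed-mean scaling. The median and quartiles of the other regions stay above 0 in all 5, which need not hold for each region. Contig NCSL01000092.1 drops with the trimmed-mean scaling, where its region from 1935 to 1966 is at 0.02 and that from 4013 to 4046 at 3.78.

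Contig NCSL01000092.1 held the strongest peaks with UV. All 9 of its named regions that had a peak with UV were higher there. They were named for high scores or large rises with UV, so nothing is read from that count. Of its 44 tested regions, 39 were called higher with UV, 1 lower and 4 not called. Over all tested regions 843 of 870 (96.9%) were called higher, an outcome that the filter favours. The region from 4013 to 4046 on the plus strand had normalized scores of 364950 and 314698 with UV and 7.74 and 13.8 without, or heights of 128491 and 48267 against 904 and 884 read equivalents (log2 difference in score 15.003, SE 0.50, limma adjusted p = 3.9e-05). The region from 4456 to 4504 had normalized scores of 128530 and 506313 with UV and 0.855 and 7.46 without (16.62, SE 1.44, limma adjusted p = 0.000662). Without Pho92-HTP replicate 2 this call was lost (adjusted p = 0.0520). Here the 2 no-UV libraries differed from each other as well, and untagged wild type reached heights of 13306 and 8332 read equivalents against 352 and 651 in the no-UV libraries.

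The region from 1935 to 1966 had the highest mean score of this contig over the 2 no-UV libraries, although in no-UV replicate 2 the region from 1589 to 1635 scored higher (19.3 against 18.5). Its normalized scores were 78730 and 43979 with UV and 31.7 and 18.5 without, a log2 difference of 11.25 (SE 0.59, limma adjusted p = 0.00015). The neighbouring region from 1881 to 1913 had 94051 and 20371 with UV and 14.6 and 13.1 without (11.63, SE 0.93, limma adjusted p = 0.000529). Over the 33 tested regions of the contig that were listed in all 4 libraries, the median ratio of scaled height with UV to that without was 32.4. Among the 221 other tested regions listed in all 4 it was 135, and this difference between the classes was not tested.

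The shape of the lists on this contig also differed between groups. The region from 1709 to 1740 had normalized scores of 33326 and 47350 with UV and was listed at 0 in both no-UV libraries. Peaks within 50 nt of it scored 12.9 and 16.3 without UV, so the stretch was not empty without UV. The reverse held for the region from 2089 to 2116, the 1 region called lower with UV. It was listed at 0 with UV and had normalized scores of 6.29 and 8.12 without (heights 749 and 620 read equivalents, log2 difference -18.30, SE 0.39, limma adjusted p = 1.49e-05). Peaks within 50 nt of it scored 20869 and 17813 with UV. When peaks within 50 nt were merged, this region was joined into a long stretch with those at 1709, 1881, 1935, 2409 and 2576. The stretch as a whole had a difference of 11.11 in the other direction, a value that does not describe this site alone.

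Outside these 2 classes, 803 of 806 tested regions were called higher with UV, none was called lower and 3 were not called. The share called higher over all tested regions was 96.9%. This class was what remained after the highest no-UV sites were set apart, and its median no-UV score was 0 in both libraries. The choice of regions thus favoured this outcome. The strongest was NCSL01000027.1 from 112217 to 112254 on the minus strand, the only one outside contig NCSL01000092.1 and the 20 sites among the 10 highest Pho92-HTP regions. Its heights were 46308 and 11329 read equivalents with UV and 115 and 78.6 without, and 1374 and 2080 in the ime4 mutant. Normalized scores of 47403 and 16797 with UV stood against 0.109 in both no-UV libraries (log2 difference 17.98, SE 0.83, limma adjusted p = 0.000101). Both libraries with UV were high and both without were low.

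The largest rises among regions listed in each of the 4 libraries came where the no-UV lists held a few reads. NCSL01000023.1 from 50123 to 50159 on the minus strand had heights of 4880 and 1791 read equivalents with UV and 1.00 and 2.00 without, and a log2 difference in score of 23.13 (SE 0.87, limma adjusted p = 5.6e-05). NCSL01000066.1 from 24131 to 24200 on the plus strand had 14763 and 5687 with UV and 8.71 and 9.90 without (22.10, SE 0.92, limma adjusted p = 7.46e-05). NCSL01000001.1 from 130669 to 130735 on the plus strand had 28276 and 7931 with UV and 26.4 and 16.9 without (21.60, SE 0.85, limma adjusted p = 6.45e-05). In the ime4 mutant these 3 regions had heights of 109 and 83.8, of 89.9 and 118, and of 118 and 87.4 read equivalents. The other 7 regions of the same rank had log2 differences between 20.91 and 21.45. Of these, the lowest, NCSL01000008.1 from 302325 to 302362, lost its call without either Pho92-HTP library (adjusted p = 0.0617 without replicate 1 and 0.0591 without replicate 2).

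Among the 5 largest rises of all called regions, at least 1 no-UV library was at 0 in each. Apart from the region at 1709 on NCSL01000092.1, the largest was NCSL01000008.1 from 1260 to 1291 on the minus strand, with heights of 20865 and 11810 read equivalents with UV. It was listed at 0 in both no-UV libraries, which held a peak from 1221 to 1250 with normalized scores of 0.370 and 0.278. NCSL01000055.1 from 18689 to 18723 on the minus strand had heights of 5480 and 5287 with UV, no peak in no-UV replicate 1 and 2.02 read equivalents in replicate 2. NCSL01000027.1 from 79098 to 79133 on the minus strand had 4544 and 2128 with UV, a peak of 1.00 read equivalent in no-UV replicate 1 and none in replicate 2.

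The 3 regions of this class that were not called had peaks in both no-UV libraries, where the class had a median score of 0. Their scores with UV ran from 3.41 to 15.8 in replicate 1, where the class median was 5.06. In replicate 2 they ran from 7.86 to 41.3, all above the class median of 5.71. All 3 lay on minus strands, at NCSL01000022.1 from 169166 to 169199, NCSL01000031.1 from 48179 to 48231 and NCSL01000054.1 from 18421 to 18452. The first had normalized scores of 3.41 and 7.86 with UV and 1.40 and 0.782 without (log2 difference 2.30, SE 0.92, limma adjusted p = 0.0732). The second had 15.8 and 41.3 with UV and 2.60 and 6.05 without (2.69, SE 0.98, limma adjusted p = 0.0586). Values with UV were above values without in every library pair of both regions, but neither passed the test.

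Most no-UV regions coincided with a region found with UV. Of 4719 regions with a peak in at least 1 no-UV library, 3497 (74.1%) also held a Pho92-HTP peak. The same 3497 were 4.39% of the 79672 regions with a Pho92-HTP peak. Only 589 of 4719 (12.5%) were found in both no-UV libraries, against 27151 of 79672 (34.1%) found in both Pho92-HTP libraries. Of the 589, 563 (95.6%) held a peak in at least 1 Pho92-HTP library, 558 (94.7%) in at least 1 ime4 library and 357 (60.6%) in at least 1 untagged library. Peaks in both libraries of the group were found for 518 (87.9%), 515 (87.4%) and 215 (36.5%). The Pho92-HTP lists cover far more sequence, 2105687 and 1322134 nt against 93905 and 79275 nt without UV. The ime4 lists cover 1508797 and 1935958 nt, and the untagged lists 85086 and 68245 nt. Of the 80806 regions in the class of all other regions, 31130 and 37803 had a peak in the ime4 libraries. In the untagged libraries 2030 and 1612 of them did. The shares of the 589 thus rest on lists of very different extent, and the part of this extent in the overlap was not tested.

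Agreement between lists rose with height. In no-UV replicates 1 and 2, regions under 2 read equivalents recurred in the other no-UV library in 9.44% and 12.4% of cases, and regions of 500 or more in 97.4% and 100%. Regions under 2 read equivalents in the no-UV lists held a Pho92-HTP peak in 75.8% and 73.01% of cases. Going the other way, Pho92-HTP regions under 2 read equivalents held a no-UV peak in 1.47% and 2.16% of cases. Those of 500 or more held one in 67.3% and 84.1%. The highest peaks with UV therefore mostly had a trace without it, at far lower height outside the 20 sites.

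**Figure D5:**
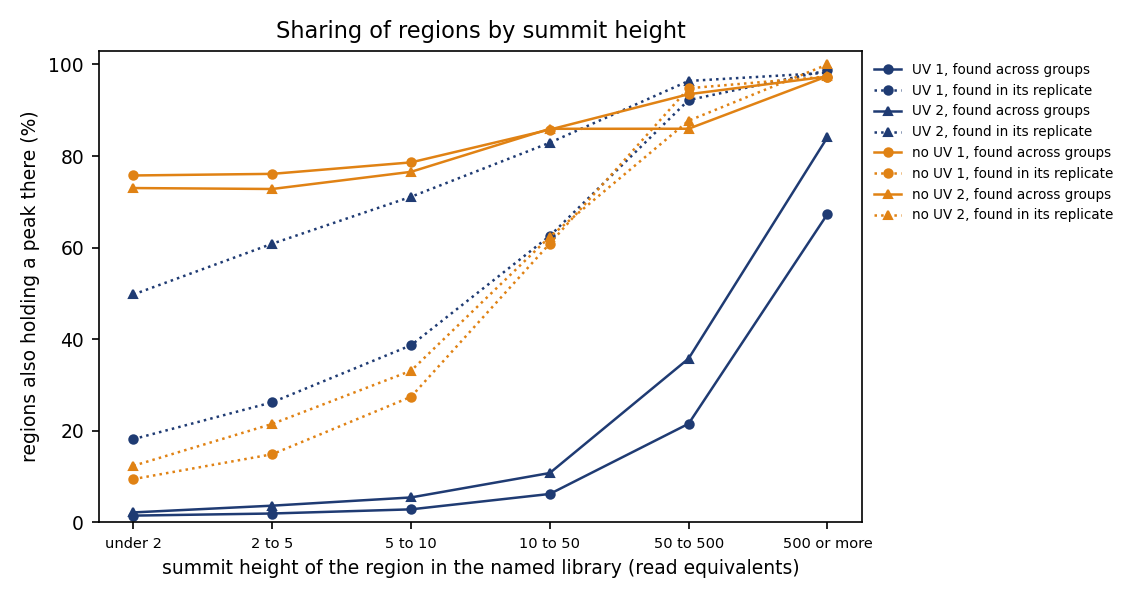
Regions of each library are binned by their summit height (read equivalents, horizontal axis), and the vertical axis gives the percent that also hold a peak in the other group (solid lines) or in the replicate library (dotted lines). Regions of the 2 no-UV libraries recur across groups in 73.01% or more of cases under 2 read equivalents, and Pho92-HTP regions recur without UV in 67.3% and 84.1% of cases at 500 or more.

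Ranks of height with and without UV were set side by side at the 20 sites and in the other tested regions outside contig NCSL01000092.1. Over the 221 other tested regions listed in all 4, Spearman's rho of height was 0.863 between the 2 Pho92-HTP libraries, 0.790 between the 2 no-UV libraries and 0.297 to 0.458 across groups. Over the 20 sites it was 0.839 to 0.913 across groups. These sites were picked for high no-UV scores and include sets of near-equal height, so nothing is read from this contrast. These values describe regions that share libraries. Heights without UV were low over the 221, with medians of 11.98 and 7.96 read equivalents, and the part of this in the values across groups was not tested.

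Regions found without UV alone were mostly low. They were 1222 of the 4719 regions with a no-UV peak (25.9%). Of the 80894 regions, 26 had a peak in both no-UV libraries and in neither Pho92-HTP library. Another 1196 had a peak in a single no-UV library and in neither Pho92-HTP library. After the region at 2089 on NCSL01000092.1 came its neighbour from 4610 to 4654, with heights of 260 and 269 read equivalents without UV and Pho92-HTP peaks within 50 nt that scored 305 and 518. The minus-strand region NCSL01000008.1 from 1221 to 1250 had 178 and 121 read equivalents. It lay beside the Pho92-HTP peak from 1260 to 1291 given above. NCSL01000008.1 from 302467 to 302498 had 57.6 and 70.0, and NCSL01000010.1 from 164180 to 164211 had 56.4 and 49.3, both on the minus strand. Each of these 5 named regions had a Pho92-HTP peak within 50 nt on its strand.

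Summit positions were compared where peaks of both groups fell in the same region. At the 20 sites the 2 no-UV libraries placed the summit at the same nucleotide in all 20, and the 2 Pho92-HTP libraries within 1 nt. The no-UV summit lay 3′ of the Pho92-HTP summit in every library pair at 10 of the 20 sites, and at none did it lie 5′ in every pair. At 8 sites the mean shift was 2 nt or more. The largest, 13.5 nt, was at NCSL01000002.1 from 322680 to 322739 on the plus strand, where peaks were 55 and 53 nt wide with UV and 35 and 34 nt wide without. The set of 4 minus-strand sites that includes NCSL01000005.1 from 195067 to 195114 shifted by 5.5 to 6 nt, with widths of 39 to 44 nt with UV and 31 nt without. These 4 are counted in both the 10 and the 8 above. Whether they share reads was not tested, so they may not be separate cases. At the strongest site, NCSL01000010.1 from 76774 to 76805, the summit was the same in all 4 libraries and the width was 31 nt in each.

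Other regions showed shifts in both directions. Among the 221 other tested regions listed in all 4 libraries, the no-UV summit lay 3′ in every pair in 77, 5′ in every pair in 39 and neither in 105. In the 81 of them with at least 10 read equivalents in both no-UV libraries, these counts were 39, 9 and 33. In the 43 of the 221 whose no-UV summits lay within 1 nt of each other, they were 24, 9 and 10. On contig NCSL01000092.1 the 33 regions split into 11, 11 and 11. The median distance between the 2 no-UV summits was 7 nt in the set of 221, 2 nt in the set of 81 and 4 nt on that contig, so part of these shifts is within the spread between replicates. No test was made of the shift, and positions depend on how the peak caller set the summit.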

How the data were processed

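The deposited files are a peak list for each library and a table of spike-in factors. Reads were 75 nt per the labels. Cutadapt, the aligner Bowtie2 (2.4.1) and ASM294v2, a fission yeast build, are named in the submitters' processing notes. The peak caller, the SK1 build and the handling of reads that match several places are not given in the sources used here. Each library has its own list on SK1 contigs, and whether coordinates count from 0 or 1 is not stated. The reference at hand was of another strain, so no gene names or sequences were assigned. Each peak has an h2w score per the file headers, and the authors multiplied it by a factor for the library to give the normalized score. That factor is a ratio of spike-in scores in the deposited table, which also gives the count of peaks in each list. The list of Pho92-HTP replicate 1 holds no normalized score, and its factor of 1 was taken from the table. From the values, the score was read as squared height divided by width, with a Gaussian SD of 15 nt. Heights of 32-nt peaks then came within 0.01 of whole reads in 63.3% to 92.4% of cases, depending on the library. This formula is an inference, total reads are unknown, and no counting error can be given.

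A region's value is the sum of its normalized scores, or 0 with no listed peak. The plan named limma for any unit but counts, and version 3.58.1 (in R 4.3.3) was fitted with its trend option to log2(normalized score + 2.21e-05) over 870 regions, where the added value is percentile 5 of all normalized scores, two-sided, with Benjamini-Hochberg adjustment and a threshold of 0.05. Differences are on that scale. Where both libraries of a group are at 0, that group adds no spread. The fit was tested on simulated data, and alternatives covered the factors, filter, pseudocount, merging of peaks, samples in the fit, replicate block and left-out libraries. Named regions are the 10 highest without UV, the 10 highest with UV, the 5 highest found in both no-UV libraries alone, the 10 largest rises with a peak in all 4 libraries, the 5 largest of all, and those called lower. Regions outside this rule were chosen after their values were seen, and members and lists were chosen with earlier results of these data known. The 2 groups share replicate numbers in the labels, but these were not shown to pair the libraries. Remaining steps ran in Python 3.11.15, pandas 2.3.3, numpy 2.4.6 and matplotlib 3.10.9.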

Additional observations from a re-analysis of the deposited data

How the results depend on the processing

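The count of regions called higher with UV, 843, stayed within 1.5 times of itself under the other settings tried, apart from a trimmed-mean scaling (466), no filter on low scores (17005), a filter of 9 (277) and, chosen after seeing the data, a fit of regions with a peak in all 4 libraries alone (254), settings that change how many regions are tested or set the shared regions to no change. The 1 region called lower became 2 with the table's factors, 11 on the raw score, 16 with library-total scaling, 38 with trimmed-mean scaling, 8 with no filter and 0 with the filter of 9, with peaks within 50 nt merged, with regions in all 4 libraries alone or, also chosen after seeing the data, without contig NCSL01000092.1. With a library left out in turn it was 2 to 11, the highest without Pho92-HTP replicate 2. The fit with the replicate number as a block called 842 higher and 3 lower, and changed no named call. Deviations of same-numbered libraries had a correlation of -0.07 over 274 regions. The median log2 difference of 16.48 was 16.28 with the table's factors, 15.02 on the raw score, 15.76 with library-total scaling, 12.83 with trimmed-mean scaling, 3.05 with no filter, 17.68 with the filter of 9, 13.71 and 19.35 with a pseudocount 10 times higher and lower, 2.79 with one of 0.9, 16.15 with peaks within 50 nt merged, 13.09 with regions in all 4 libraries, 8.18 on summit height (added after seeing the data) and 16.40 to 16.63 with a library left out. The ratio of peaks above 0.9 of 19.8 was 17.7 with the table's factors, 12.8 on the raw score and 14.0 at a threshold of 9. The ratio of summed height of 10.7 was 8.13, 5.51, 16.4 without the strongest region and 95.5 without the 20 highest no-UV sites, the first 2 under the table's factors and no factor. The 74.1% of no-UV regions with a Pho92-HTP peak was 87.6% within 50 nt, 54.9% with an overlap by 0.5 of the shorter peak and 58.8% to 77.7% with a library left out.

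Sites of small difference changed sign. At 2:149968, 1:445225, 9:88258, 9:347149, 54:27327 and 22:138631 (contig number NCSL010000 and start), log2 differences were, in this order, -1.38, -1.41, -1.97, -2.06, -1.84 and -1.98 on the raw score, -1.71, -1.74, -2.30, -2.39, -2.17 and -2.31 with library-total scaling, and -10.50, -10.53, -11.09, -11.18, -10.96 and -11.10 with trimmed-mean scaling. With the table's factors the last 5 were -0.024, -0.58, -0.67, -0.46 and -0.59. With a library left out the 6 ranged from -0.14 to 1.60, -0.14 to 1.54, -0.53 to 0.81, -0.54 to 0.64, -0.54 to 1.08 and -0.62 to 0.88, and 10:76774 from -0.86 to 0.74, 11:300989 from -1.43 to 0.29, 1:119063 from -0.69 to 0.53 and 16:119530 from -1.32 to 0.94. Summit height gave 0.027 at 1:119063, trimmed-mean scaling -7.96 at 16:111284, and merging within 50 nt 11.11 for the long stretch that took in 92:2089. With no filter the 7 strongest regions of contig NCSL01000092.1 with a peak in all 4 libraries and 16:111284 lost their calls, and with trimmed-mean scaling 4 of those 7 did. Beyond what each setting's construction shows, the cause was not tested. Depth is unknown, and 0.9 stood for 202 and 82.9 read equivalents at 32 nt in Pho92-HTP replicates 1 and 2 and 308 and 234 in no-UV replicates 1 and 2, so a region can pass in one library at a height that fails in another.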
